A study of Homo sapiens with 16 samples.

Results

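SGK1, RGS2, EMP1 and F3 are 4 of the 18377 genes read on these arrays, and they were chosen because their levels appeared graded over the tumours. Each of the 4 had 1 transcript cluster annotated to its symbol alone. The choice rested on the measured levels over all groups, so every level and every difference of these 4 genes is a description and carries no p-value. The label of a stepwise fall held only in part. SGK1, RGS2 and EMP1 took 3 levels, highest in control tumours 2 and 5, intermediate in the other 4 controls and the miR1 tumours alike, and lowest in the miR2 tumours. With the values as deposited, F3 took a high level in control tumours 2 and 5 and a lower one in the other 14 tumours, within which the groups overlapped.

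The tumours were grown from BT474, a human breast cancer line with amplified ERBB2 (HER2), in mammary fat pads of mice without a working immune system. The cells carried a lentiviral vector that expressed a microRNA hairpin under doxycycline, either a control hairpin (CTRL miR, 6 tumours) or 1 of a pair of hairpins against SHP2 (SHP2 miR1, 7 tumours; SHP2 miR2, 3 tumours). All 16 tumours, controls included, came from mice given doxycycline in their water (2 g per L) over 30 days once tumours had formed, and 100 ng of total RNA of each tumour was labelled for a human gene array. Neither the host strain nor the animal behind each numbered tumour is named in the labels, so p-values measure the spread between these tumours, which may be technical in part. The array was designed for human transcripts, and a dissected tumour also holds mouse cells. Fewer cells of a type and less RNA per cell cannot be told apart in such bulk RNA.

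SGK1 encodes a serine/threonine kinase whose transcript is induced by serum and by glucocorticoids and whose activity depends on PI3K, mTORC2 and PDK1. RGS2 encodes a regulator of G protein signalling that speeds the hydrolysis of GTP on Gq and so shortens signals from receptors coupled to it. EMP1 encodes a membrane protein that crosses the membrane several times and belongs to the PMP22 family. F3 encodes tissue factor, the cell surface receptor of coagulation factor VIIa and the start of the extrinsic clotting cascade. SHP2, the product of PTPN11, is a tyrosine phosphatase needed for full RAS and ERK signalling downstream of growth factor receptors, and AP-1, the dimer of FOS and JUN proteins, is among the factors that ERK signalling raises.

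The promoters are shown because the 4 genes were grouped by level alone, and the sequence in front of each start shows what 2 of them share that the levels did not use. All 4 symbols matched the RefSeq promoter table (GRCh38.p14), SGK1 with 3 starts and the others with 1. Below are the 250 bases before the transcript start, 5′ to 3′ along the gene, with AP-1 motifs (TGANTCA) in capitals. F3 lies on the minus strand at chr1:94541760-94542009, EMP1 on the plus strand at chr12:13196476-13196725, RGS2 on the plus strand at chr1:192808789-192809038 and the most downstream start of SGK1 on the minus strand at chr6:134174867-134175116.
F3: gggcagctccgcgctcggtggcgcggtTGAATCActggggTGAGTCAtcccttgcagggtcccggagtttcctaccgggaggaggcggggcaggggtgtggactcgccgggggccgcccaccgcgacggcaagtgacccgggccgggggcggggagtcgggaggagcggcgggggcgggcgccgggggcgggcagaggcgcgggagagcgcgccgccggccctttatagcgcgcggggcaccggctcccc
EMP1: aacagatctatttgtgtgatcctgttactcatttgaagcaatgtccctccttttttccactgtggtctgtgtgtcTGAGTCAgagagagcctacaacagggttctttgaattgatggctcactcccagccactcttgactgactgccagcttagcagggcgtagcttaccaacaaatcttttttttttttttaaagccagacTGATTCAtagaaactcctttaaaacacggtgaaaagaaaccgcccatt
RGS2: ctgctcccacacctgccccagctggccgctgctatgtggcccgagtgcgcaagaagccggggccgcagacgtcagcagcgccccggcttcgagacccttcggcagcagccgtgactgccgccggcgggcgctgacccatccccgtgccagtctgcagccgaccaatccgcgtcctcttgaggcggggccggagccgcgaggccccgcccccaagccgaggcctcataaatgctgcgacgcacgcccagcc
SGK1: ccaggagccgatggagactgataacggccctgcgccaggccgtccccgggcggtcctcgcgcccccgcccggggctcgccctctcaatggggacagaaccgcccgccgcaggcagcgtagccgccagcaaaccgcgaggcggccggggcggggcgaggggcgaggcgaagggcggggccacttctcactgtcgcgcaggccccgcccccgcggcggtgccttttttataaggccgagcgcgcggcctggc

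F3 held 2 AP-1 matches, at bases -223 to -217 and -210 to -204 counted from the start. EMP1 held 2 as well, at bases -175 to -169 and -48 to -42. The motif reads the same on both strands, so each match was counted once. Of the 35116 promoter windows of this length in the table, 6.57% held the motif and 0.402% held 2 or more. RGS2 and all 3 starts of SGK1 held no match. The other motifs, searched on both strands, had no match in any of the 6 windows. They were the cyclic AMP response element TGACGTCA (in 1.65% of all windows), the TEAD motif GGAATG (11.9%), the ETS motif CCGGAAGT (3.42%), the FOXO motif TGTTTAC (2.98%), the glucocorticoid receptor core AGAACA (12.4%) and the SRF CArG box (1.16%). A match is a description of these letters, and binding was not measured.

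**Figure D1:**
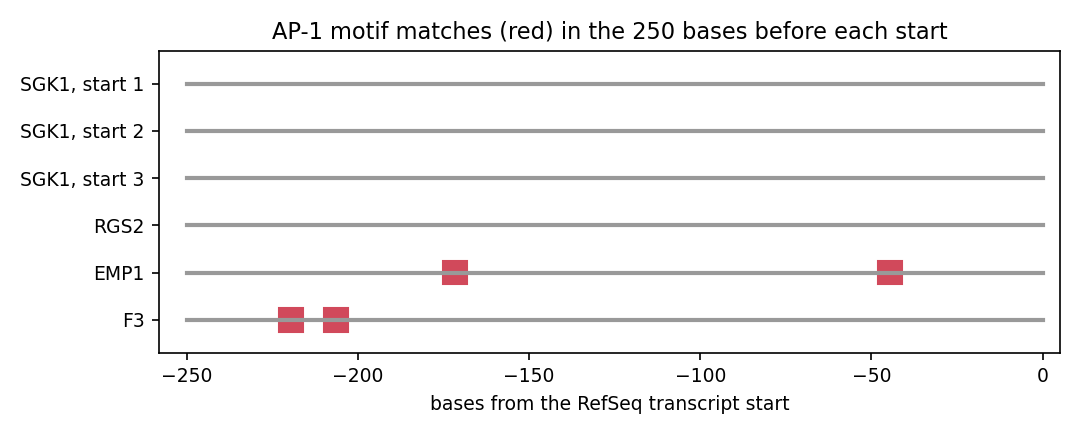
Positions of AP-1 motif matches (red boxes) in the 250 bases before each of the 6 RefSeq starts of the 4 genes; the x axis gives bases from the transcript start. F3 and EMP1 hold 2 matches each, and RGS2 and the 3 SGK1 starts hold none.

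The arrays themselves were alike in overall scale, with lower quartiles of 3.72 to 4.04 over all clusters on the log2 scale. The target, PTPN11, had a log2 signal of 8.40 ± 0.16 (SD, n = 6) in CTRL miR, 6.93 ± 0.19 in the miR1 group (SD, n = 7) and 6.46 ± 0.10 in the miR2 group (SD, n = 3), and no knockdown tumour reached the controls. Its difference was -1.47 ± 0.097 (SE, limma adjusted p = 5.11e-08) with miR1 and -1.94 ± 0.12 (SE, limma adjusted p = 6.97e-09) with miR2. The two-sided exact permutation tests gave p = 0.00117 and p = 0.0238, the smallest that these numbers of tumours allow. Control tumours 1, 3, 4 and 6 stood apart from every other array. IRS4, an insulin receptor adaptor, was at 7.14 to 8.29 in those 4 and at 2.97 to 3.91 in the other 12. The arrays also fell into a set A of 7 (CTRL 1 to 3 and miR1 1 to 4) and a set B of 9 (the rest, with all miR2 tumours), with a mean of 5 small noncoding RNAs of 8.19 to 8.39 and of 6.81 to 7.21. Both divisions were read from the arrays and not from the labels, so they are used to describe and not to test. The cells showed the luminal epithelial markers of BT474, with a mean of the 10 markers of 9.27 to 10.02 over the tumours and ERBB2 at 10.8 to 11.2 as the mean of each set of tumours.

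SGK1 had a log2 signal of 7.82 and 7.91 in control tumours 2 and 5. In control tumours 1, 3, 4 and 6 it was 6.56, 6.47, 6.61 and 6.80. The miR1 tumours ran from 6.28 to 7.19 with a median of 6.71, and the miR2 tumours were at 5.91, 5.84 and 5.67. Control tumours 2 and 5 were thus above all others and the miR2 tumours below all others, while the other controls lay within the range of the miR1 tumours. The difference of the 4 controls from control tumours 2 and 5 was -1.26 ± 0.19 (log2, SE), so that they had 41.8% of that signal. The miR1 tumours differed from these 4 controls by 0.046 ± 0.13 (SE), which is less than the SD of either. The miR2 mean fell below the miR1 mean by 0.85 (difference -0.85 ± 0.15, SE) and was 57.4% of the signal in controls 1, 3, 4 and 6.

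RGS2 followed SGK1 closely. Its log2 signal was 6.33 and 6.58 in control tumours 2 and 5, and 5.16, 5.12, 5.23 and 5.87 in controls 1, 3, 4 and 6. The miR1 tumours had 4.75 to 5.44 with a median of 5.31, and the miR2 tumours had 4.32, 4.53 and 4.19. Again the top pair and the bottom 3 tumours did not overlap with any other. Control tumour 6 lay between control tumours 2 and 5 and the remaining controls. The step from control tumours 2 and 5 to the other controls was -1.11 ± 0.21 (SE), that from those controls to miR1 -0.17 ± 0.15 (SE) and that from miR1 to miR2 -0.83 ± 0.17 (SE). The middle step was smaller than the SD of 0.29 among the miR1 tumours. RGS2 in miR2 tumours was 23.2% of its signal in control tumours 2 and 5. In miR2 tumour 3 it stood 0.14 above the lower quartile of its array, the closest of the 4 genes to that level.

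EMP1 had the widest gap of the 4 genes between the miR2 tumours and those with miR1 or controls 1, 3, 4 and 6. It was at 6.41 and 6.56 in control tumours 2 and 5, at 5.45, 5.55, 5.68 and 5.72 in controls 1, 3, 4 and 6, and at 4.39, 4.37 and 4.53 with miR2. With miR1 it ran from 5.17 to 5.94 with a median of 5.37, a range that covers all 4 of those controls. The step from miR1 to miR2 (-1.01 ± 0.13, SE) was of the same order as that among the controls (-0.88 ± 0.17, SE). In between, miR1 differed from controls 1, 3, 4 and 6 by -0.16 ± 0.12 (SE). The miR2 level was 44.4% of that in controls 1, 3, 4 and 6 and 24.1% of that in control tumours 2 and 5.

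F3 was the exception. Its log2 signal was 5.70 and 5.80 in control tumours 2 and 5, and 5.03, 5.15, 5.04 and 4.85 in controls 1, 3, 4 and 6. It was 4.70 to 5.03 with miR1, with a median of 4.92, and 4.66, 4.87 and 4.81 with miR2. Only control tumours 2 and 5 stood clear of the rest, and the ranges of the other 3 sets overlapped with one another. The step among the controls was -0.73 ± 0.12 (SE), whereas those that followed were -0.12 ± 0.088 (SE) and -0.12 ± 0.097 (SE). The means of the 4 sets fell in order. Both later steps were smaller than the SD of 0.13 among controls 1, 3, 4 and 6. They were slightly larger than the SDs of 0.11 among the miR1 tumours and 0.11 among the miR2 tumours. The difference between miR2 and miR1 was -0.28 after quantile normalization and -0.23 with each array centred on its median, both larger in size than these SDs.

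**Figure D2:**
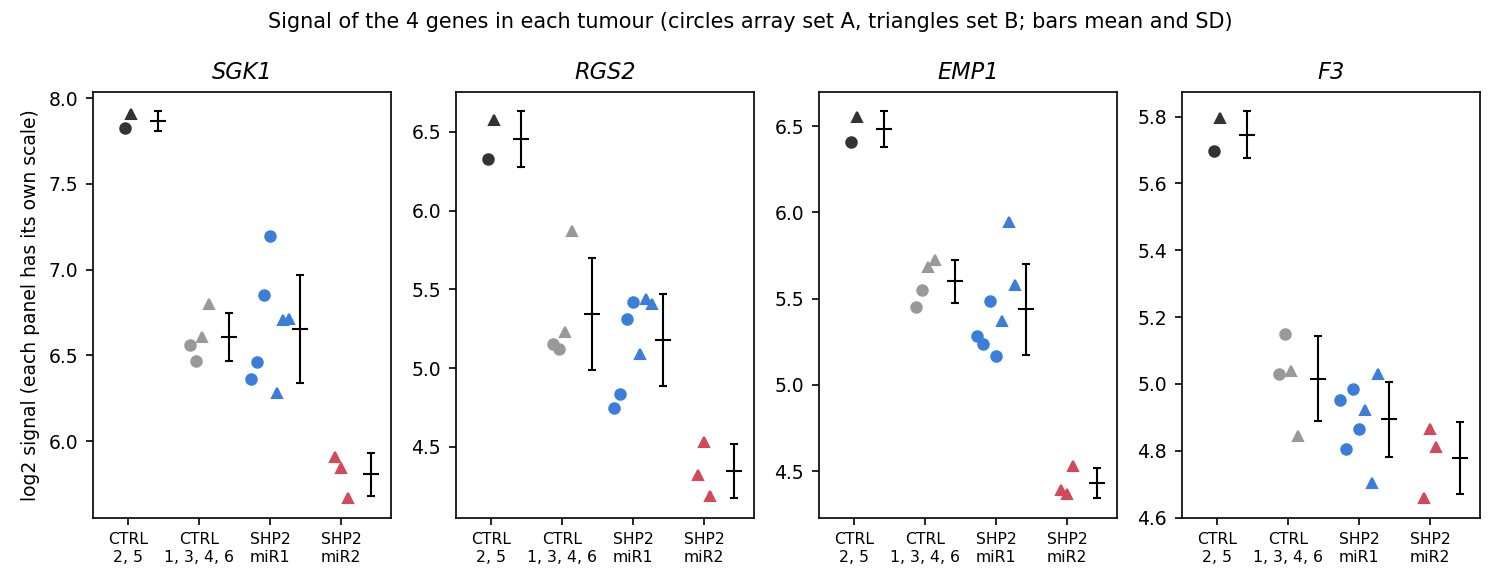
Log2 signal of SGK1, RGS2, EMP1 and F3 in each of the 16 tumours (y axis, 1 scale per gene) by set of tumours (x axis); circles are arrays of set A, triangles of set B, and bars give mean and SD. Control tumours 2 and 5 lie above all others in each gene, the 3 miR2 tumours lie below all others in SGK1, RGS2 and EMP1, and in F3 they overlap with miR1.

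**Figure D3:**
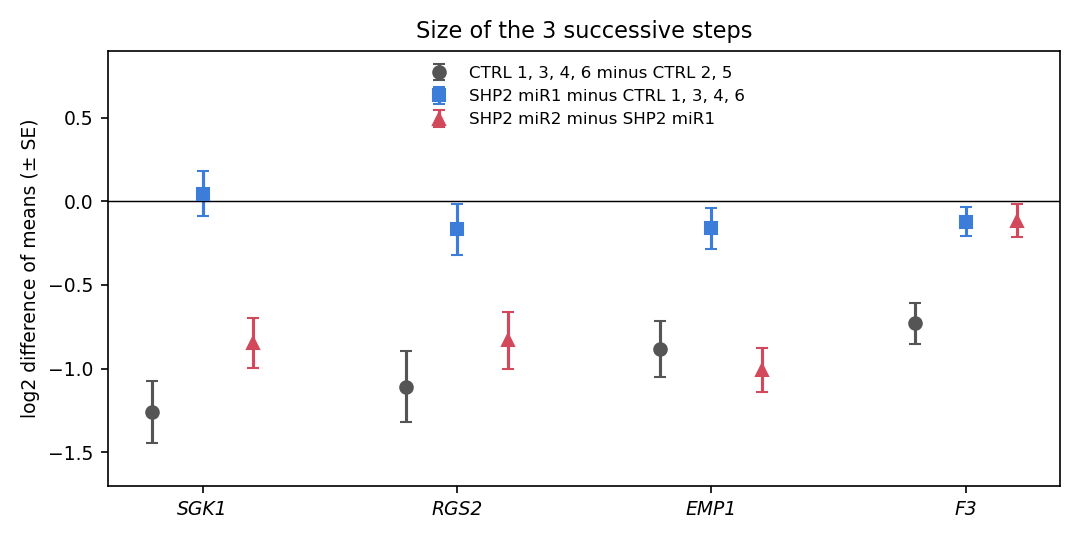
Log2 difference of means with SE (y axis) for the 3 successive steps between the sets of tumours, for each gene (x axis). The step from controls 1, 3, 4 and 6 to miR1 lies between -0.17 and 0.046, and the last step is -0.83 or larger in size for all but F3.

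The choice of controls therefore sets how large the difference with miR1 appears. Against all 6 controls miR1 differed by -0.37 ± 0.22 (SE) in SGK1, -0.54 ± 0.21 in RGS2, -0.46 ± 0.17 in EMP1 and -0.36 ± 0.13 in F3. Against control tumours 2 and 5 alone the same differences were -1.21, -1.27, -1.05 and -0.85, and against controls 1, 3, 4 and 6 alone they were 0.046, -0.17, -0.16 and -0.12. SGK1 thus changes sign between the 2 kinds of control. With miR2 the differences from all 6 controls were -1.22 ± 0.28, -1.37 ± 0.27, -1.47 ± 0.21 and -0.48 ± 0.17 (SE), and they stayed negative with either kind of control. The miR1 and miR2 differences share their controls.

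Control tumours 2 and 5 lay in different array sets. In set A, SGK1 was at 7.82 in control tumour 2, at a mean of 6.51 in controls 1 and 3, and at 6.72 ± 0.38 (SD, n = 4) in miR1. In set B it was at 7.91 in control tumour 5, at a mean of 6.70 in controls 4 and 6, at 6.57 ± 0.25 (SD, n = 3) in miR1 and at 5.81 ± 0.125 (SD, n = 3) in miR2. In set A miR1 was thus above controls 1 and 3, and in set B below controls 4 and 6. Both sets therefore held 1 control tumour with a high level, and the low miR2 level was seen against miR1 arrays of the same set. Within set B the difference between miR2 and miR1 was -0.76 in SGK1, -0.96 in RGS2, -1.20 in EMP1 and -0.11 in F3. Of the miR2 arrays, those of tumours 1 and 3 had the narrowest spread over all clusters, an SD of 1.89 against 1.98 in tumour 2. Tumour 2 had 5.84, 4.53, 4.37 and 4.87 for SGK1, RGS2, EMP1 and F3. Its RGS2 and F3 levels were the highest of the 3 miR2 tumours and its EMP1 level the lowest.

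Over all genes, the pattern of these tumours was uncommon, and since it chose the 4 genes it is given as background only. All 4 genes had control tumours 2 and 5 above the other 14, which was true of 159 of 18377 genes (0.865%). SGK1, RGS2 and EMP1 had all 3 miR2 tumours below the other 13, as did 1489 genes (8.10%). Both held in these 3 and in 21 genes in all (0.114%). The means of the 4 sets fell in order in RGS2, EMP1 and F3 and in 369 genes (2.01%). No overlap between any neighbouring sets, which is what a fall in 4 clear steps would need, held in 0 of the 4 and in 2 genes of the array (0.0109%), the collagen chain gene COL5A2 and PPP4R1L.

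Likeness between genes was measured as Pearson's r over the 16 tumours, which share groups and array sets, so r mainly shows the differences between the sets of tumours. SGK1 and RGS2 were each other's closest gene of 18376, with r = 0.95. EMP1 ranked 5th for SGK1 (r = 0.88) and 2nd for RGS2 (r = 0.92), and F3 ranked 30th for SGK1 (r = 0.78). When the mean of each set of tumours was subtracted first, SGK1 and RGS2 still varied together (r = 0.71), RGS2 and EMP1 less so (r = 0.48), and SGK1 and EMP1 hardly (r = 0.054). F3 had r of -0.22 to -0.28 with the other 3. By this measure RGS2 ranked 33rd of 18376 for SGK1, and SGK1 ranked 148th for RGS2, so many other genes lay closer to each. Within the sets SGK1 thus varied more with RGS2 than with EMP1 or F3, but not with RGS2 in particular. The array set was not subtracted.

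**Figure D4:**
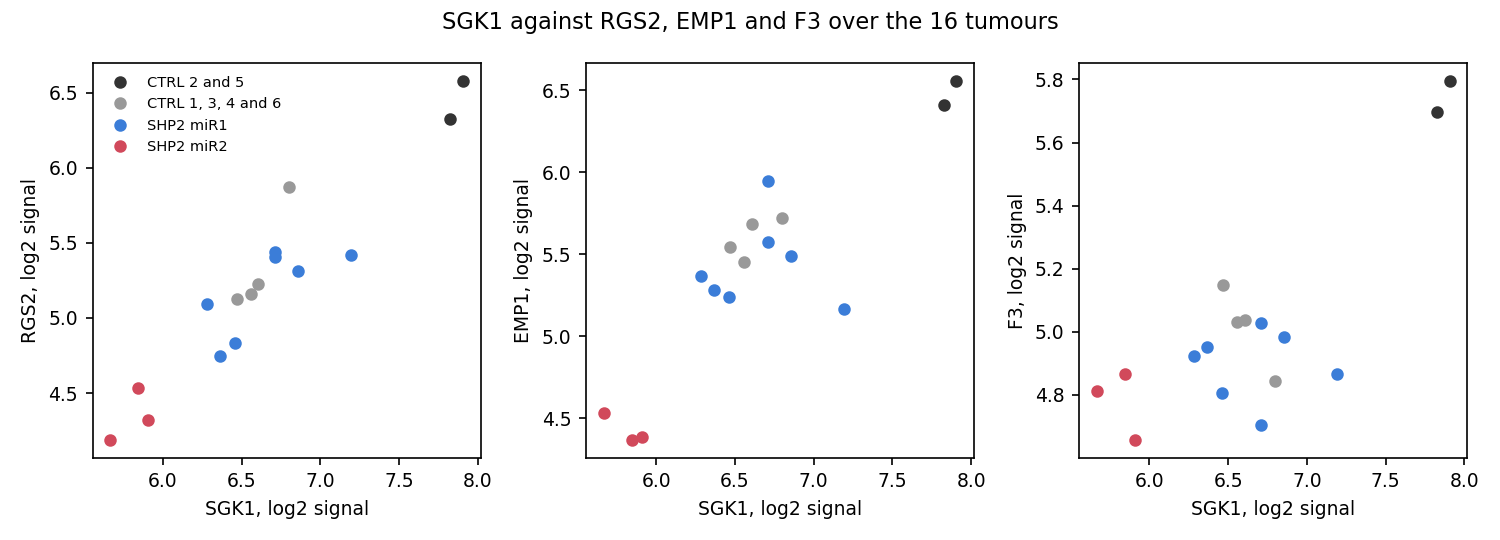
Log2 signal of SGK1 (x axis) against RGS2, EMP1 and F3 (y axes) in each of the 16 tumours, coloured by set of tumours. RGS2 rises with SGK1 over the whole range (r = 0.95), whereas F3 sets only control tumours 2 and 5 apart (r = 0.78).

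Among genes with a mean level above the median gene, those most like SGK1 were CHPT1, a choline phosphotransferase (r = 0.90), the fatty acid elongase gene ELOVL5 (0.88), the transcriptional repressor gene BCL6 (0.88) and SCGB2A2, which encodes mammaglobin A (0.88). SCGB2A2 was also the closest to EMP1 (0.90), followed by COL5A2 (0.90) and the guanylate cyclase subunit gene GUCY1A2 (0.90). For RGS2 the list was SGK1, ENPP1 (0.86), SCGB2A2 (0.86) and COL5A2 (0.85). SCGB2A2 spanned the widest range of these, with 9.54 and 9.56 in control tumours 2 and 5, 8.04 to 8.32 in the other controls, 8.18 to 9.05 with miR1 and 6.27 to 6.76 with miR2. F3 had other neighbours, with MRFAP1 first (0.92) and NEU1 (0.79) next. Within the sets of tumours the closest genes were again others, namely CXCL17 (0.82) for SGK1, SRFBP1 (0.91) for RGS2, HCCS (0.88) for EMP1 and MRFAP1 (0.74) for F3.

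Whether the 4 genes followed the depth of the knockdown was examined within the 7 miR1 tumours, where group means play no part. PTPN11 ranged from 6.59 to 7.18 there. Its relation to RGS2 had a Pearson r of 0.77 (exact permutation p = 0.0556, adjusted p = 0.222 over 4 relations) and a Spearman rho of 0.64 (exact p = 0.139, adjusted p = 0.278). For EMP1 r was 0.52 (exact p = 0.189, adjusted p = 0.378) and rho 0.75 (exact p = 0.0663, adjusted p = 0.265). SGK1 had r = 0.41 (exact p = 0.348, adjusted p = 0.463) and rho = 0.43 (exact p = 0.354, adjusted p = 0.471), and F3 had r = 0.045 (exact p = 0.873) and rho = 0.18 (exact p = 0.713). None of the 4 relations passed after adjustment. Without the 2 tumours farthest from the median of PTPN11, r was 0.70 for RGS2, 0.82 for EMP1, -0.033 for SGK1 and 0.11 for F3. Sets A and B held 4 and 3 miR1 tumours, too few for a value within each.

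The surrounding pathways were taken from lists of partners, family members and markers that leave out the 4 genes. They were tested in 1 limma fit over 18377 genes with an adjusted p below 0.05 as the threshold. Of all genes, 4.76% passed with miR1 (1.38% higher, 3.38% lower), 30.0% with miR2 (11.8% higher, 18.2% lower) and 22.5% between the hairpins (8.22% higher, 14.3% lower with miR2). Higher calls were 39.3% of the calls with miR2 and 36.5% between the hairpins, and 23.8% and 15.5% once each array was centred on its median. Each list is also given against control tumours 2 and 5 alone, where 25 genes passed with miR1 and 803 with miR2. With only 2 controls a call can be lost while the difference is as large, so the differences are given beside the lost calls. The list of 10 MAPK activity genes had the lowest medians, -0.43 with miR1 and -0.73 with miR2 against 0.018 and 0.023 over all genes. With miR1 5 of the 10 fell and with miR2 8 of 10. DUSP6, an ERK phosphatase induced by ERK, fell by 1.58 ± 0.17 with miR2 (log2, SE, limma adjusted p = 3.63e-06). SPRY4, which restrains growth factor signalling, fell by 1.15 ± 0.15 (SE, adjusted p = 3.2e-05), and the ETS factor gene ETV4 fell by 0.99 ± 0.15 (SE, adjusted p = 0.000153). SPRY2 fell by 0.85 ± 0.21 (adjusted p = 0.00688). Against control tumours 2 and 5 alone 0 of the 10 passed with miR1 (limma, 5 at an unadjusted p below 0.05) and 6 fell with miR2, while SPRY2 (-0.28, adjusted p = 0.407) did not pass.

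Glucocorticoid-responsive genes, the class to which SGK1 belongs, mostly did not pass. Of 12 measured, 1 rose with miR1, the secreted protein gene CRISPLD2 (0.43 ± 0.090, SE, limma adjusted p = 0.0138), and 0 passed with miR2 (4 at an unadjusted p below 0.05), where the medians of 0.034 and 0.057 lay near those of all genes. With control tumours 2 and 5 alone 0 passed with miR1 (limma, 3 at an unadjusted p below 0.05). With miR2 1 fell, ZBTB16 (-1.16, adjusted p = 0.00448), which is named for this count and did not pass against all 6 controls (-0.33, adjusted p = 0.375). By tumour, the mean of the 12 genes ran from 6.50 to 6.61 for controls 1, 3, 4 and 6. As with SGK1, this was below control tumours 2 and 5 (6.73 and 6.77). The range was 6.58 to 6.75 for miR1 and 6.53 to 6.80 for miR2, so here the miR2 tumours did not lie below all others. Of 10 kinases, activators and substrates around SGK1, 0 passed with miR1 (limma, 4 at an unadjusted p below 0.05), and with miR2 1 rose and 3 fell. These were 4 of 10 with miR2, beside 30.0% of all genes. SCNN1A, the epithelial sodium channel subunit whose surface level SGK1 is known to raise, fell by 0.80 ± 0.13 (SE, adjusted p = 0.000378) and was also lower against control tumours 2 and 5 (-0.87, adjusted p = 0.00725). MAPKAP1 (-0.34, adjusted p = 0.0146) and MLST8 (-0.28, adjusted p = 0.0299), subunits of mTORC2, fell as well, and the paralogue SGK2 rose (0.40, adjusted p = 0.0278). These 3 differed from control tumours 2 and 5 alone by -0.30, -0.20 and 0.20 and did not pass there (adjusted p = 0.248, 0.439 and 0.516) or after quantile normalization (adjusted p = 0.101, 0.298 and 0.0811).

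Few of the other RGS genes fell as RGS2 did. Of 19 measured, 1 fell with miR1 (RGS17, -0.55 ± 0.15, SE, limma adjusted p = 0.0367), and with miR2 1 rose (RGS18, 0.51 ± 0.12, SE, adjusted p = 0.00419) and 1 fell (RGS7, -0.42 ± 0.12, SE, adjusted p = 0.0127). These were 1 of 19 with miR1, beside 4.76% of all genes, and 2 of 19 with miR2, beside 30.0%. RGS7 was also lower with miR2 than with miR1 (-0.69 ± 0.12, SE, adjusted p = 0.000464), and its mean was lowest with miR2, as in RGS2. RGS18 is known from blood cells, and its set means of 3.11 to 3.63 lay below the lower quartiles of the arrays (3.72 to 4.04). After quantile normalization it differed by 0.37 with miR2 (limma adjusted p = 0.0345). With control tumours 2 and 5 as the only controls RGS17 differed by -0.37, RGS18 by 0.51 and RGS7 by -0.52, so that the latter pair kept its size, and none of the 3 passed (adjusted p = 0.855, 0.0591 and 0.0667). In the Gq pathway, on which RGS2 acts, 1 of 13 rose and 1 fell with miR1, and 2 rose and 1 fell with miR2. The miR2 count of 3 of 13 was not above the 30.0% of all genes that passed. The inositol trisphosphate receptor gene ITPR1 rose by 0.92 ± 0.15 with miR2 (SE, adjusted p = 0.000286; 1.14 and adjusted p = 0.0013 against control tumours 2 and 5), and the phospholipase gene PLCB2 by 0.40 (adjusted p = 0.0235). PLCB4 rose with miR1 (0.45, adjusted p = 0.0124). The exchange factor gene ARHGEF25 fell with both hairpins (-0.50 and -0.48, adjusted p = 0.0124 and 0.0105) but not against control tumours 2 and 5 (-0.26 and -0.23, adjusted p = 0.759 and 0.317), where PLCB2 (0.26, adjusted p = 0.412) and PLCB4 (0.24, adjusted p = 0.831) did not pass either.

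Of 4 listed relatives of EMP1, 3 were measured and 0 passed with miR2. EMP2 did not pass (0.12 with miR1 and -0.079 with miR2, limma adjusted p = 0.599 and 0.645), nor did LIM2 (-0.035 and 0.34, adjusted p = 0.944 and 0.137). As in EMP1, their means were higher in control tumours 2 and 5 (9.52 and 5.59) than in the other controls (9.13 and 5.24). EMP3 fell with miR1 (-0.64 ± 0.17, SE, adjusted p = 0.0377) and not with miR2 (-0.42, adjusted p = 0.138). Its mean was 4.53 in control tumours 2 and 5 and 5.48 in the other controls, the reverse of the order in EMP1, and its miR1 difference from control tumours 2 and 5 was 0.0017. Among 15 measured genes of the tissue factor, thrombin and plasminogen pathway, 2 fell with miR1, and with miR2 2 rose and 3 fell. Over all genes 4.76% passed with miR1 and 30.0% with miR2, so the miR2 count of 5 of 15 was near that share. TFPI, the inhibitor of tissue factor, fell by 0.76 ± 0.24 with miR2 (SE, adjusted p = 0.025) and by 0.69 with miR1 (adjusted p = 0.0424), whereas against control tumours 2 and 5 it differed by -0.015 with miR2 and by 0.0535 with miR1 (adjusted p = 0.964 for each). SERPINE2, an inhibitor of thrombin and plasminogen activators, fell by 0.93 ± 0.16 with miR2 (SE, adjusted p = 0.000434; -0.51 and adjusted p = 0.0478 against control tumours 2 and 5). The clotting factor genes F10 (0.48, adjusted p = 0.0352) and F2 (0.44, adjusted p = 0.0372) rose with miR2. They differed from control tumours 2 and 5 by 0.38 and 0.33 and did not pass there (adjusted p = 0.267 and 0.329). Neither passed after quantile normalization (adjusted p = 0.0518 and 0.0972) or with the array set as a block (0.26 and 0.25, adjusted p = 0.0894 and 0.104).

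F3 is also counted among the targets of YAP-TEAD, and 21 other targets were listed and measured. With miR1 1 rose and 2 fell, and with miR2 4 rose and 1 fell, with medians of 0.016 and -0.012. Over all genes 4.76% passed with miR1 and 30.0% with miR2, and the miR2 count of 5 of 21 was not above that share. FOXF2 fell with miR1 (-0.91 ± 0.26, SE, limma adjusted p = 0.0461) and ANKRD1 with both (-0.58 and -0.62, adjusted p = 0.0399 and 0.0275), while IGFBP3 (0.61, adjusted p = 0.00673) and the receptor tyrosine kinase gene AXL (0.47, adjusted p = 0.00823) rose with miR2. Against control tumours 2 and 5 alone 0 of the 21 passed with either hairpin (limma, 1 with miR1 and 5 with miR2 at an unadjusted p below 0.05). There IGFBP3 and AXL differed by 0.23 and 0.34 with miR2, and the miR1 differences of FOXF2 and ANKRD1 were 0.040 and 0.026.

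Immediate-early and dissection stress genes, the class through which handling of tissue can show, did not fall with the 4 genes. Of 14 measured, 0 passed with miR1 (limma, 3 at an unadjusted p below 0.05), and with miR2 FOS (0.43, limma adjusted p = 0.0238) and FOSB (0.54, adjusted p = 0.0299) rose. Neither passed after quantile normalization (adjusted p = 0.0648 and 0.0743) or against control tumours 2 and 5, where they differed by 0.21 and 0.34 (adjusted p = 0.521 and 0.401). The mean of the list over the tumours was 6.19 and 6.22 in control tumours 2 and 5, 5.85 to 6.09 in the other controls, 5.89 to 6.04 with miR1 and 5.91 to 6.38 with miR2. Control tumours 2 and 5 were thus above the other controls here too, but the miR2 tumours were not the lowest. Luminal markers did not order the tumours as the 4 genes did, since the mean of the 10 was 9.76 and 9.90 in control tumours 2 and 5, 9.27 to 9.74 in the other controls, 9.75 to 10.02 with miR1 and 9.72 to 9.99 with miR2. Of the 10, ESR1 rose with miR1 (0.58, adjusted p = 0.0263), and with miR2 ESR1 (1.11, adjusted p = 0.00033), GATA3 (1.01, adjusted p = 5.4e-05) and EPCAM (0.34, adjusted p = 0.047) rose. Between the hairpins 2 were higher with miR2, GATA3 (0.78, limma adjusted p = 0.000546) and ESR1 (0.53, adjusted p = 0.0401). Another 4 were lower, KRT8 (-0.415, adjusted p = 0.0214), KRT18 (-0.49, adjusted p = 0.00907), KRT19 (-0.56, adjusted p = 0.0112) and FOXA1 (-0.49, adjusted p = 0.0212). With quantile normalization 3 were higher and 1 lower. Over all genes 30.0% passed with miR2 and 22.5% between the hairpins. Against control tumours 2 and 5 alone 0 of the 10 passed with miR1 (limma, 1 at an unadjusted p below 0.05), where ESR1 differed by 0.45 (adjusted p = 0.728). With miR2 ESR1 (0.98, adjusted p = 0.0101) and GATA3 (0.90, adjusted p = 0.00203) rose there and the keratin gene KRT19 fell (-0.58, adjusted p = 0.0429), with a list median of -0.07. EPCAM did not pass there (0.21, adjusted p = 0.498), when centred (0.25, adjusted p = 0.121) or with the array set as a block (0.25, adjusted p = 0.13).

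As means of the sets of tumours, markers of host cells were highest with miR2, where SGK1, RGS2 and EMP1 were lowest. With miR2 6 of 10 fibroblast markers, 3 of 10 endothelial markers and 6 of 10 macrophage markers rose and 0 fell, with medians of 0.40, 0.28 and 0.46. Of all genes, 11.8% rose and 18.2% fell with miR2. The endothelial count of 3 of 10 was not above the 30.0% of all genes that passed in either direction. Collagens COL3A1 (0.80, limma adjusted p = 0.0016) and COL1A2 (0.78, adjusted p = 0.000299), ENG (0.55, adjusted p = 0.00658), LYZ (0.89, adjusted p = 0.000134) and the leukocyte gene PTPRC (0.66, adjusted p = 0.000384) were among them. PTPRC had means of 3.14 to 3.86 over the sets and the fibroblast marker DCN of 3.32 to 3.84. These lay within or below the range of the arrays' lower quartiles (3.72 to 4.04), which were highest in miR2 tumours 1 and 3 (4.01 and 4.04). After quantile normalization 3, 2 and 6 markers of the lists rose, with medians of 0.24, 0.13 and 0.34. With the array set as a block 4, 2 and 4 rose. Against control tumours 2 and 5 alone COL1A2 (0.59, adjusted p = 0.0414) and LYZ (0.63, adjusted p = 0.0155) rose and 0 endothelial markers passed (limma, 0 at an unadjusted p below 0.05). There COL3A1 differed by 0.70 (adjusted p = 0.0529), PTPRC by 0.53 (adjusted p = 0.0529) and ENG by 0.35 (adjusted p = 0.262). The mean of the fibroblast markers was 4.89 and 5.03 in control tumours 2 and 5, 4.63 to 4.81 in the other controls, 4.90 to 5.15 with miR1 and 5.21 to 5.35 with miR2. The macrophage mean was 4.41 and 4.60, 4.21 to 4.48, 4.38 to 4.62 and 4.57 to 4.96 in the same sets, and the endothelial mean 4.48 and 4.61, 4.27 to 4.36, 4.35 to 4.57 and 4.46 to 4.75. The endothelial markers PECAM1 and CDH5 stayed at or below a mean of 4.54 in every set. In control tumours 2 and 5, with the highest levels of the 4 genes, the fibroblast and endothelial means lay above those of the other controls. Their macrophage means (4.41 and 4.60) overlapped with the range of the other controls (4.21 to 4.48). The part of host cells in the levels of the 4 genes was not tested.

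**Figure D5:**
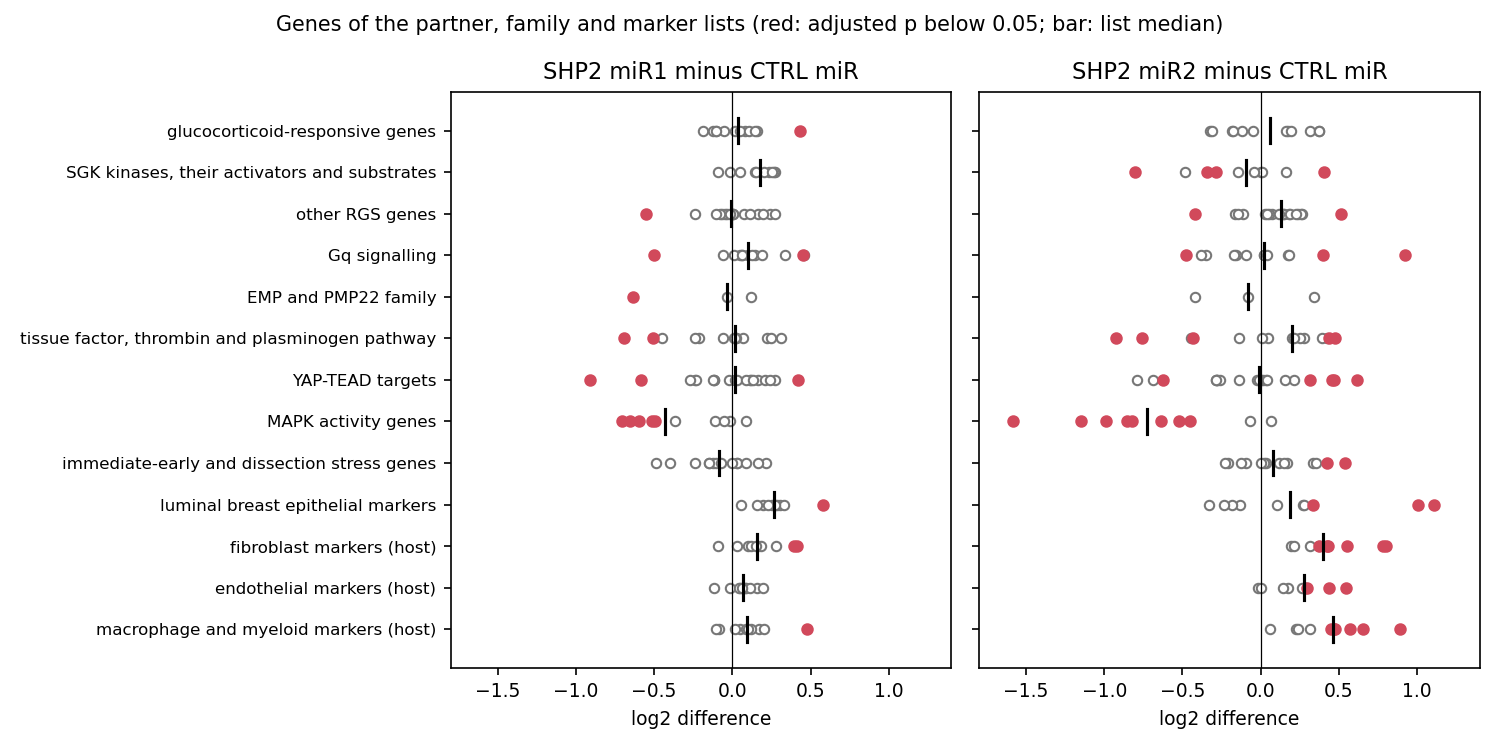
Log2 differences (x axis) of each measured gene of the 13 lists (rows) for miR1 and for miR2 against all 6 controls; red points passed (adjusted p below 0.05), open points did not, and black bars are list medians. The MAPK activity list has the lowest median with each hairpin (-0.43 and -0.73), and the host marker lists lie to the right with miR2 (medians 0.28 to 0.46).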

How the data were processed

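Total RNA of the 16 tumours was measured on a human gene array, HuGene-1_0-st-v1 from Affymetrix, per the labels. Values were used as deposited, 1 log2 signal for each transcript cluster in each array. That they are log2 was read from their range, and the submitters' processing notes name R 2.10 and oligo 1.8. For background correction and normalization, no method is given in the sources used here. Of 28869 clusters, 19310 had 1 gene symbol, 1752 several and 7807 none. Clusters with 1 symbol were used, the highest in mean for each gene, which left 18377 genes with no filter.

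Group means were compared with limma 3.58.1, lmFit and eBayes, in R 4.3.3 (13 residual degrees of freedom), with Benjamini-Hochberg adjustment over all genes. SEs between the 4 sets of tumours come from the same kind of fit with 4 means. Exact permutation tests used scipy 1.17.1. The 4 genes, the 13 lists and the tests were chosen with earlier results of these data known. Named genes are the 4, PTPN11, for each of the 4 the 4 genes with the highest r over the tumours and the first of 3 ranked by deviations from set means, the EMP family, SGK2, and at most 4 called members of each other list with the largest difference. COL5A2 and PPP4R1L as the only genes in full order, and those under other observations, were named after their values were seen. So were ZBTB16, NFKBIA, MT2A, TSC22D3, KLF9, KRT8, KRT18, KRT19 and FOXA1. ERBB2, PECAM1 and CDH5 are given as defining markers and IRS4 to describe the controls. For arrays the number of arrays limits the precision.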

Additional observations from a re-analysis of the deposited data

Results flagged for a closer look

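RGS2 in control tumour 6 was at 5.87, while controls 1, 3 and 4 were at 5.16, 5.12 and 5.23. Its gap to the nearest of them was 0.86 of the whole range of these 4 tumours, above the critical value of 0.829 for a group of 4. Chance gives such a gap in about 1 in 20 groups, and 15 groups of values were examined. SGK1 (6.80) was also highest in control tumour 6 among these 4, and so was EMP1 (5.72), but F3 (4.85) was lowest there.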

How the results depend on the processing

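The differences of the 4 genes kept their sign under quantile normalization, centring on array medians, a filter on genes of low mean, array weights, the array set as a block, fits to array sets A and B alone, fitting only the groups compared and leaving out each tumour. The exception in sign was SGK1 with miR1 against controls 1, 3, 4 and 6 alone (0.046). With array weights the miR1 differences were -0.12, -0.31, -0.27 and -0.21 in SGK1, RGS2, EMP1 and F3. Against control tumours 2 and 5 alone the miR1 differences of SGK1, RGS2, EMP1 and F3 were -1.21, -1.27, -1.05 and -0.85 and the miR2 differences -2.06, -2.11, -2.05 and -0.97. Each gene had 1 cluster, so no other cluster could be tried. Leaving out 1 tumour gave -0.49 to -0.20 (SGK1), -0.65 to -0.36 (RGS2), -0.55 to -0.32 (EMP1) and -0.45 to -0.26 (F3) with miR1. With miR2 it gave -1.33 to -1.05, -1.49 to -1.20, -1.55 to -1.33 and -0.56 to -0.37, and between the hairpins -0.91 to -0.76, -0.92 to -0.75, -1.06 to -0.92 and -0.16 to -0.055. Whether the replicate numbers pair the tumours is not settled (5 of 12 same-numbered pairs correlated above 0.1, from -0.42 to 0.37). All 5 were among the 6 pairs of a control and a miR1 tumour, at 0.21 to 0.37, and in the remaining one, number 4 (-0.30), the arrays were of different array sets. In those 5 the arrays were of the same set, so a pairing and the array set cannot be told apart there. Of the pairs with a miR2 tumour 0 were above 0.1. With the replicate block the miR2 difference of SGK1 was -1.14, and the count between the hairpins rose to 6773.

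Counts of called genes moved more. With miR1, 874 passed, against 25 with control tumours 2 and 5, 3454 with controls 1, 3, 4 and 6, 3371 with array weights, 10 in set A and 1 in set B, the sets alone having been tried after seeing the data. With miR2, 5508 passed, against 803, 8435, 3366 with only the groups compared, 8868 with array weights and 2550 in set B. Between the hairpins 4136 passed, against 2523 with the set as a block, 7180 with array weights and 972 in set B. Leaving out 1 tumour gave 233 to 1913, 2391 to 7739 and 1310 to 5923. With miR1 the count moved by over 1.5 times without any of the 6 controls or miR1 tumours 1 to 4, and with miR2 and between the hairpins without miR2 tumour 1 or 3. Higher calls made up 39.3% with miR2 and 36.5% between the hairpins, and 23.8% and 15.5% when centred on array medians, which moved the median of all genes between the hairpins to -0.11. The PTPN11 difference between the hairpins ran from -0.52 to -0.40 when 1 tumour was left out, with limma adjusted p from 0.00483 to 0.0896, the call being lost without miR2 tumour 3, and the other PTPN11 differences kept their call (-1.51 to -1.42 and -1.97 to -1.88). Of 75 calls of named list genes, 52 were lost in set B alone, 38 against control tumours 2 and 5 alone, 24 with quantile normalization, 24 when centred, 23 with the set as a block, 19 with only the groups compared, 6 with the replicate block, 3 with array weights and 0 with controls 1, 3, 4 and 6. In set A alone 15 of 16 were lost, and over the fits without 1 tumour 235 of 1200. Another 4, all with miR1, changed sign against control tumours 2 and 5, EMP3 (0.0017), TFPI (0.0535), FOXF2 (0.040) and ANKRD1 (0.026). The cause of these changes was not tested.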

Other observations

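Beside SGK1, RGS2 and EMP1, 18 genes had control tumours 2 and 5 above all other tumours and the 3 miR2 tumours below all others. They were picked by that pattern, so their levels are a description. Their miR2 means were lower than those of control tumours 2 and 5 by between 0.51 and 3.11 on the log2 scale (differences of -0.51 to -3.11). SCGB2A2, mammaglobin A, spanned the most, from 9.55 to 6.44. The transporter gene ABCC11 went from 8.53 to 6.17, with 6.88 in the other controls and 7.81 with miR1, so that miR1 lay above these controls. The engulfment adaptor gene GULP1 went from 6.10 to 3.84. PDK4, a kinase that inhibits pyruvate dehydrogenase, went from 5.75 to 4.13, and GUCY1A2 from 8.36 to 6.86. The repressor gene BCL6 went from 7.18 to 5.76. Among genes of lipid handling, the elongase ELOVL5 went from 9.70 to 8.39, the acyl-CoA synthetase ACSL1 from 9.07 to 7.78 and CHPT1 from 8.31 to 7.39. The others were SULF2, COL5A2, FLVCR2, C19orf48P, PPP4R1L, TNFSF15, NAV2, DDX56 and ENPP1. Only COL5A2 (6.96, 6.56, 6.10 and 5.67) and PPP4R1L (5.87, 5.52, 5.20 and 4.77) fell without overlap through control tumours 2 and 5, the other controls, miR1 and miR2 in turn.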
